A study of Arabidopsis thaliana with 9 samples.

Results

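The transcripts of 10 nuclear genes of the endoplasmic reticulum (ER) folding machinery were followed in Arabidopsis thaliana leaves that lack the chloroplast 2-Cys peroxiredoxins. The genes were taken by locus identifier from the expression table of 33602 loci and comprise BIP1 (AT5G28540), BIP2 (AT5G42020), BIP3 (AT1G09080), SHD (AT4G24190), CNX1 (AT5G61790), CRT1a (AT1G56340), CRT1b (AT1G09210), CRT3 (AT1G08450), PDIL1-1 (AT1G21750) and bZIP60 (AT1G42990). Young rosette leaves of the strain Col-0 were taken at an age of 8 weeks from plants kept in short days, after 2 h in light of 125 µE m-2 s-1. The 3 genotypes were the wild type, 2cpab, which lacks 2-Cys peroxiredoxins A and B, and ntrc-2cpab, in which NTRC is missing too. NTRC is the NADPH-dependent thioredoxin reductase that keeps these peroxiredoxins of the chloroplast reduced. Each genotype had 3 samples, each sample pooled the leaves of 3 plants, and poly(A) RNA was sequenced. The sources used here name no independent lines of either mutant, so an effect of the line cannot be told apart from that of the mutations. The study's title concerns the redox balance of the chloroplast.

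Proteins that leave the cell or enter its membranes are threaded into the ER, where Hsp70 and Hsp90 chaperones, sugar-binding chaperones and disulfide isomerases fold them. When unfolded protein builds up, the ER membrane sensor IRE1 splices the messenger RNA of bZIP60, and the proteolytically released factor bZIP28 moves to the nucleus, and both factors raise chaperone genes in what is called the unfolded protein response. In Arabidopsis the same chaperones are also known to be needed for secreting defence proteins such as PR1 after salicylic acid treatment.

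The letters that these factors are known to bind were looked for around the start of each gene, and the matches are shown because they group the members by known regulatory element. The ER stress response element ERSE-I was searched as CCAAT, 9 bases of any kind and CCACG, on both strands, from 250 bases before to 50 bases after the gene start of the RefSeq annotation of build TAIR10.1. It was present in 3 of the 10 members and in 0.397% of 27444 genes. The 3 matches, with 5 bases on each side, are printed 5′ to 3′ on the strand of the gene with the fixed letters in capitals.
PDIL1-1: aatacCCAATtagagatagCCACGtggat
SHD: ttgctCCAATacaaaactaCCACGtggct
CNX1: aatgaCGTGGcctgttatgATTGGttagc
In PDIL1-1 the printed bases lay 7 to 35 bases into the gene (chr1:7645616-7645644, plus strand). In SHD they reached from 27 bases before the start to base 2 of the gene (chr4:12556057-12556085, minus strand). In CNX1 they lay 17 to 45 bases into the gene (chr5:24829856-24829884, minus strand), and there the element reads on the opposite strand to the gene.

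The shorter element ERSE-II, ATTGG, 1 base and CCACG, was found in BIP2 alone among the members and in 0.0692% of all genes in the same window. With the window widened to 500 bases before and 200 bases after the start, BIP1 held it as well, against 0.12% of all genes. The printed 29 bases of BIP1 lie 108 to 136 bases after its annotated start (chr5:10543423-10543451, minus strand), and those of BIP2 lie 12 to 40 bases after its own (chr5:16810654-16810682, minus strand).
BIP1: cgtaagataATTGGtCCACGtcatctctg
BIP2: cgtaagataATTGGtCCACGtcatctccg
The letters CCACG, which both elements contain, was in 6 of 10 members and in 18.2% of genes. The core TGACGTG of the unfolded protein response element, whose reverse reading overlaps CCACG by 4 bases where they coincide, was in 5 of 10 members (PDIL1-1, CRT1a, SHD, BIP2 and CNX1) and in 3.41% of genes. CRT1a had no ERSE in either window, and its 110 bases before the start (chr1:21092710-21092819, minus strand) are printed with each CCACG on either strand, extended where the core overlaps it, in capitals.
CRT1a: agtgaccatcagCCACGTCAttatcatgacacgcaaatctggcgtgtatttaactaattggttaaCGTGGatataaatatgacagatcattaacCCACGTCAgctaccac
BIP1, BIP3, CRT3 and bZIP60 had none of these 4 sets of letters in the window of 250 and 50 bases. The heat shock letters GAANNTTC were in CRT3 and in no other member, against 11.6% of genes, and in the wide window also in BIP2, against 26.5%. The letters GAAGAAGAA, the core of the TL1 element known from ER genes that answer to salicylic acid, were in BIP1, BIP2 and CNX1, against 6.35% of genes, and in the wide window also in bZIP60, against 19.9%. In the wide window CCACG and TGACGTG were each in 7 of 10 members, against 35.7% and 5.94% of genes. A match describes letters in a window and is not a measured binding site.

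The whole table set the frame for the members. Values are scaled abundances, recovered by removing the logarithm and the offset of 1 from the deposited log2 values. The sources do not say whether these are FPKM or TPM, and depth is unknown. The mutated genes followed the labels. 2CPA stood at 259 to 325 in the wild type and at 3.43 to 4.85 in both mutants. 2CPB stood at 53.0 to 63.4 in the wild type and at 8.88 to 10.8 in both mutants. NTRC stood at 74.5 to 80.2 in the wild type, at 60.9 to 68.1 in 2cpab and at 14.7 to 18.3 in ntrc-2cpab. Wild-type replicate 1 stood farthest from the other samples on the first principal component, which carried 37.0% of the variance, at −36.2 against −18.3 for wild-type replicate 3 and −4.42 to 20.8 for the other samples. In the limma fit over 16384 genes whose mean abundance was 1 or more, those with a Benjamini-Hochberg adjusted p under 0.05 were called. In 2cpab 11 genes rose and 11 fell against the wild type, in ntrc-2cpab 427 rose and 218 fell, and between the mutants 1 gene was lower in ntrc-2cpab. All 10 members passed the filter.

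BIP1 and BIP2, the 2 broadly expressed genes for BiP, the luminal Hsp70, were the members that rose in ntrc-2cpab. In the wild type BIP1 stood at 62.0, 77.3 and 76.4 in replicates 1, 2 and 3. In 2cpab it stood at 93.5, 102 and 119, and in ntrc-2cpab at 93.3, 139 and 152. Every mutant sample lay above every wild-type sample, while the 2 mutants overlapped, as ntrc-2cpab replicate 1 stood at the level of the lowest 2cpab sample. BIP1 rose in ntrc-2cpab by 0.80 ± 0.179 (SE) on the log2(value + 1) scale, which is 1.74-fold, with a limma adjusted p of 0.0435. In 2cpab the difference from the wild type was 0.54 with a 95% interval of 0.14 to 0.94, and the limma adjusted p of 0.18 missed the threshold.

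BIP2 gave the same picture at a lower level. It stood at 49.3, 63.0 and 58.8 in the wild type, at 74.6, 80.2 and 95.8 in 2cpab and at 77.1, 109 and 116 in ntrc-2cpab. Again no mutant sample reached down to the wild type, and ntrc-2cpab replicate 1 lay inside the 2cpab range. BIP2 rose in ntrc-2cpab by 0.80 ± 0.164 (SE), 1.74-fold, with a limma adjusted p of 0.0354, and differed by 0.54 in 2cpab with an adjusted p of 0.156. BIP2 carries the ERSE-II letters in the window of 250 and 50 bases, and BIP1 only in the wide window. Their coding sequences are identical at 96.8% of 2006 aligned bases, so reads can be split between them and the separate values are uncertain. The ratio of BIP1 to BIP2 stayed between 1.21 and 1.31 in the 9 samples. Added together, they stood at 129 ± 15.5 (SD, n = 3) in the wild type. The corresponding sums were 188 ± 24.1 for 2cpab and 229 ± 51.7 for ntrc-2cpab. The sum was thus 1.46 and 1.78 times the wild-type mean. It is free of the split between the 2 copies only if shared reads were all kept and none was counted for both. The sources do not say how such reads were assigned.

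The 2 calls were close to the threshold. With 1 sample left out at a time, the BIP1 difference stayed between 0.66 and 1.01 and was called in 1 of 9 fits (limma adjusted p 0.0465 to 0.135). The BIP2 difference stayed between 0.69 and 0.98 and was called in 3 of 9 fits (limma adjusted p 0.0368 to 0.113). Without wild-type replicate 1 the differences were 0.70 for each gene, with limma adjusted p of 0.135 and 0.113.

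**Figure D1:**
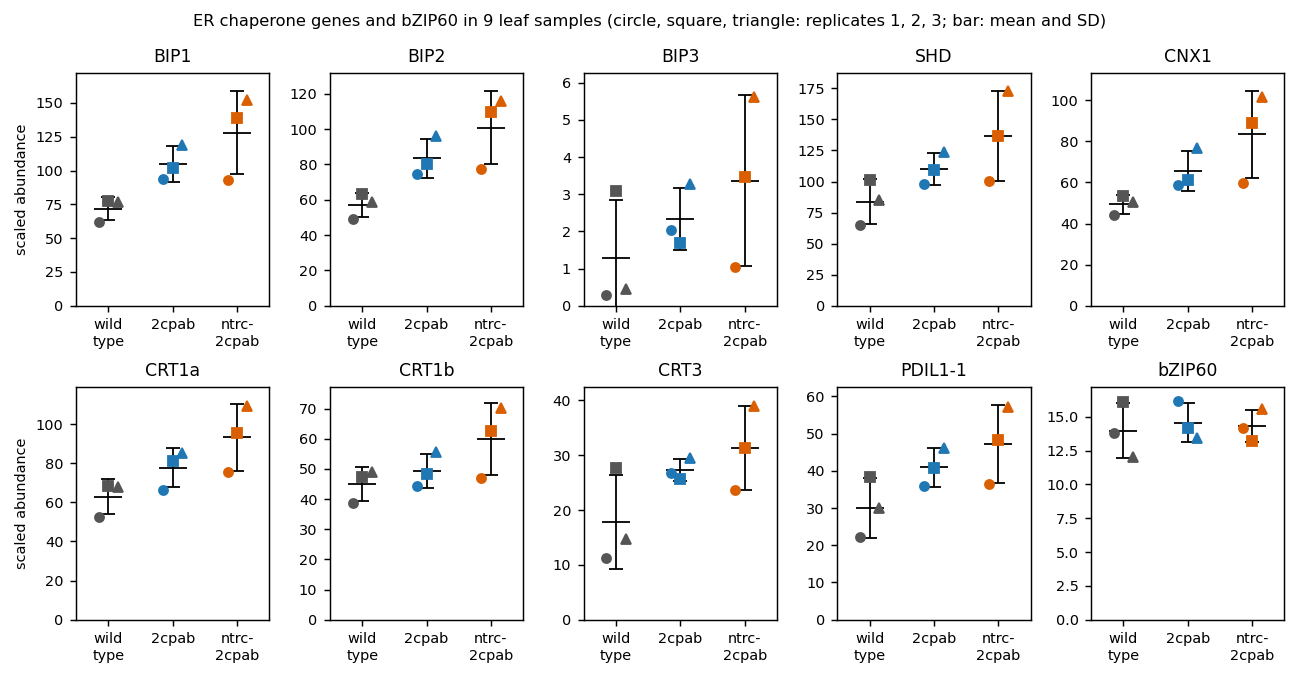
Scaled abundance (linear axis from 0, own scale per gene) of the 10 members in each of the 9 samples, by genotype on the x axis; circles, squares and triangles are replicates 1, 2 and 3, and the bars are the mean and SD of 3 samples (the wild-type bar of BIP3 ends at the axis). For BIP1, BIP2 and CNX1 all mutant samples lie above all wild-type samples, and the bZIP60 values lie between 12 and 16.2 in every genotype.

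BIP3, the BiP gene known to be nearly silent until ER stress, was far lower and had the widest limma intervals of the members, which are on the log2 scale. It stood at 0.294, 3.07 and 0.453 in the wild type, at 2.03, 1.69 and 3.27 in 2cpab and at 1.03, 3.45 and 5.62 in ntrc-2cpab. Wild-type replicate 2 lay among the mutant samples and ntrc-2cpab replicate 1 below all of 2cpab, so every pair of groups overlapped. The differences from the wild type were 0.73 in 2cpab and 0.99 in ntrc-2cpab, with 95% intervals of −0.38 to 1.84 and −0.12 to 2.1 and limma adjusted p of 0.485 and 0.255. BIP3 amounted to between 0.597% and 4.88% of BIP2 in a sample, both ends of that range being wild-type samples.

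SHD encodes the ER-resident Hsp90, whose loss is known to disturb shoot and floral meristems. SHD stood at 65.0, 101 and 85.3 in the wild type, at 98.1, 109 and 124 in 2cpab and at 100, 137 and 173 in ntrc-2cpab. Wild-type replicate 2 reached into the range of both mutants. The differences from the wild type were 0.41 in 2cpab and 0.69 in ntrc-2cpab, with limma adjusted p of 0.35 and 0.0915.

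The lectin chaperones, which hold newly made glycoproteins by their sugar chains, spanned a wider range of differences than the BiP genes. The membrane-bound calnexin CNX1 stood at 44.1, 53.3 and 50.5 in the wild type, at 58.8, 61.0 and 76.8 in 2cpab and at 59.9, 88.8 and 101 in ntrc-2cpab. No mutant sample of CNX1 overlapped the wild type. CNX1 differed from the wild type by 0.72 in ntrc-2cpab with a 95% interval of 0.30 to 1.13, and the limma adjusted p of 0.0619 missed the threshold.

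The luminal calreticulins CRT1a and CRT1b are close copies, identical at 84.4% of 1269 aligned coding bases. CRT1a stood at 52.6, 68.4 and 67.6 in the wild type, at 66.4, 81.2 and 85.5 in 2cpab and at 75.4, 95.2 and 109 in ntrc-2cpab, and its ntrc-2cpab samples did not overlap the wild type. CRT1b stood at 38.7, 47.4 and 49.1 in the wild type, at 44.3, 48.1 and 55.6 in 2cpab and at 46.9, 62.7 and 70.1 in ntrc-2cpab, with overlap throughout. The differences in ntrc-2cpab were 0.55 for CRT1a and 0.39 for CRT1b, with limma adjusted p of 0.0801 and 0.164. The ratio of CRT1a to CRT1b was 1.36 to 1.44 in wild-type samples, 1.499 to 1.69 for 2cpab and 1.52 to 1.61 for ntrc-2cpab, so wild-type and mutant ratios did not overlap. The gap was narrow, from 1.44 in the wild type to 1.499 in 2cpab. This ratio carries no test, and how often the ratios of other gene pairs do not overlap was not counted. Reads may also be split between these copies.

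CRT3, a calreticulin of plants known for folding the immune receptor EFR, had the largest differences between wild-type replicates among the lectins in proportion to its mean. It stood at 11.2, 27.6 and 14.7 in the wild type, at 26.7, 25.7 and 29.5 in 2cpab and at 23.6, 31.3 and 38.9 in ntrc-2cpab. Wild-type replicate 2 lay inside the mutant range, while wild-type replicates 1 and 3 lay below every mutant sample. The difference in ntrc-2cpab was 0.84, with a limma adjusted p of 0.112. With 1 sample left out at a time, this difference stayed between 0.58 and 1.19. It was called in 1 of 9 fits (limma adjusted p 0.0205 to 0.305), the fit without wild-type replicate 2, the highest wild-type sample.

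PDIL1-1, a protein disulfide isomerase that forms and exchanges disulfide bonds in the ER, stood at 22.1, 38.2 and 30.04 in the wild type. It stood at 35.8, 40.8 and 46.2 in 2cpab and at 36.3, 48.4 and 57.1 in ntrc-2cpab. Only replicate 2 of the wild type came within reach of the mutants. The differences were 0.46 in 2cpab and 0.64 in ntrc-2cpab, with limma adjusted p of 0.302 and 0.106.

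bZIP60, the transcription factor that IRE1 activates by splicing its RNA, stood apart from the chaperones. It stood at 13.8, 16.1 and 12.03 in the wild type, at 16.2, 14.2 and 13.4 in 2cpab and at 14.2, 13.2 and 15.6 in ntrc-2cpab. The 3 genotypes overlapped fully, and the highest and the lowest of the 9 samples were 2cpab replicate 1 and wild-type replicate 3. The differences from the wild type were 0.06 in 2cpab and 0.04 in ntrc-2cpab, with 95% intervals of −0.19 to 0.32 and −0.22 to 0.29 and limma adjusted p of 0.819 and 0.869. The bZIP60 table value counts all of its RNA, spliced and unspliced. The splice site, known from Arabidopsis, is shown because the activating step happens there. In the 888-base coding sequence, 19 stretches match the letters CNGNNG known from IRE1 cut sites, and 1 pair of them starts 23 bases apart (chr1:16136262-16136315, minus strand, TAIR10.1), with both copies in capitals.
bZIP60: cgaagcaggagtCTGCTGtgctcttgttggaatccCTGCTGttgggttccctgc
A gene-level value cannot separate RNA with these 23 bases from RNA without them, so splicing was not measured.

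Across the members, 0 of 10 were called in 2cpab against the wild type, where 0.134% of all genes were called, and 3 of 10 were higher at an unadjusted limma p under 0.05, against 9.02% of all genes. In ntrc-2cpab 2 of 10 rose and none fell, where 3.94% of all genes were called and 2.61% rose, and 8 of 10 were higher at an unadjusted p under 0.05, against 13.1%. The groups did not overlap for 3 members in 2cpab (BIP1, BIP2 and CNX1), where 11.0% of all genes lay wholly above the wild type. In ntrc-2cpab they did not overlap for 4 members, the same 3 and CRT1a, against 14.3% of all genes. BIP1 and BIP2, the 2 called members, can share reads, so these counts may take 1 signal for 2 genes. The median member difference was 0.43 in 2cpab and 0.70 in ntrc-2cpab, beside medians of 0.000064 and 0.0018 over all genes tested. Both comparisons use the same 3 wild-type samples, so a low wild-type sample enters both.

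Between the mutants, 0 of 10 members were called by limma and 0 of 10 were higher at an unadjusted p under 0.05, where 0.0061% of all genes were called and 2.14% were higher at that p. All 9 chaperones had a higher mean in ntrc-2cpab than in 2cpab, by 0.16 to 0.32 with a median of 0.26. Over all genes 52.6% had a higher mean there, with a median of 0.0077. All members overlapped between the 2 mutants, where 5.37% of all genes lay wholly higher in ntrc-2cpab. For BIP1 the 95% interval of this difference was −0.14 to 0.66, and for CNX1 it was −0.09 to 0.73. These intervals hold both no difference and one as large as that between 2cpab and the wild type.

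**Figure D2:**
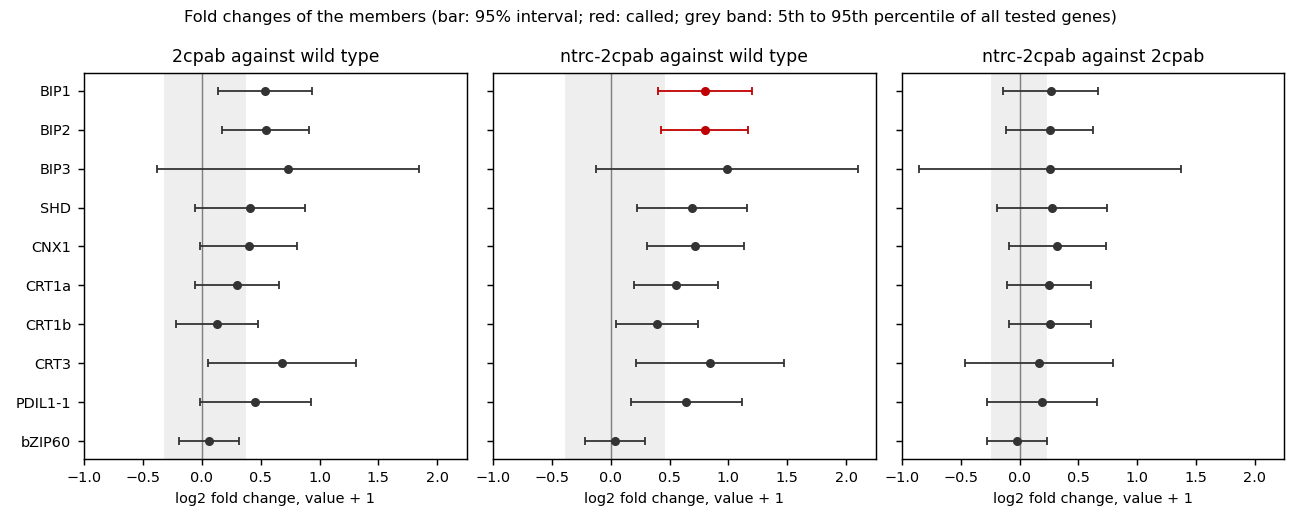
Differences of the 10 members on the log2(value + 1) scale (x axis) for the 3 comparisons, with 95% limma intervals, called members in red and the 5th to 95th percentile of all 16384 genes as a grey band. BIP1 and BIP2 are called in ntrc-2cpab against the wild type, both at 0.80, and the bZIP60 intervals include 0 in each panel.

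Summed over the 9 chaperones, abundance was 345, 479 and 433 in the wild type. It was 500.2, 550 and 636 for 2cpab and 514, 715 and 824 for ntrc-2cpab. No mutant sample reached down to the wild type, though the lowest of 2cpab lay close to the highest of the wild type. The means were 419 ± 68.1 (SD, n = 3), 562 ± 68.6 and 684 ± 157, ratios of 1.34 and 1.63 to the wild type. Because each sample is a bulk leaf extract, more RNA per cell and more cells of a type rich in ER cannot be told apart. The wild-type means placed SHD (83.8 ± 18.1) and BIP1 (71.9 ± 8.57) highest, then CRT1a (62.9 ± 8.90), BIP2 (57.0 ± 7.05), CNX1 (49.3 ± 4.75) and CRT1b (45.1 ± 5.55). PDIL1-1 (30.1 ± 8.05), CRT3 (17.8 ± 8.63), bZIP60 (14.0 ± 2.03) and BIP3 (1.27 ± 1.56) followed. In that order the 3 samples of each gene overlapped those of the next, except between CRT1b and PDIL1-1 and between bZIP60 and BIP3. These are levels of abundance, which the StringTie tool named in the processing notes reports per transcript length.

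The chaperones also moved together within each genotype. Of the 9 chaperones, 9 were lowest in wild-type replicate 1 among the wild-type samples and 8 were highest in wild-type replicate 2. In 2cpab 9 were highest in replicate 3, and in ntrc-2cpab 9 were lowest in replicate 1 and 9 highest in replicate 3. Over the 36 pairs of chaperones, Pearson's r of log2 values in the 9 samples ran from 0.76 to 0.996 with a median of 0.94. With the genotype means removed it ran from 0.67 to 0.99 with a median of 0.92. The highest value in each case was that of BIP1 with BIP2, whose reads can be split between them. bZIP60 had r of −0.03 to 0.48 with the chaperones. These are descriptions over 9 samples, and all genes of a sample share its library and scaling.

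The secreted PR proteins shared part of the sample order of the chaperones, and the wider defence list shared it in the wild type but less in the mutants. PR1, a marker protein of salicylic acid defence, stood at 0.259, 24.4 and 3.90 in the wild type, at 12.4, 8.67 and 26.5 in 2cpab and at 1.61, 40.6 and 49.6 in ntrc-2cpab. PR2, a secreted glucanase, stood at 4.79, 49.0 and 9.14 in the wild type, at 27.4, 36.8 and 60.4 in 2cpab and at 17.3, 54.9 and 79.6 in ntrc-2cpab. PR5, a thaumatin-like protein with the highest mean of this list over the 9 samples, stood at 10.7, 68.7 and 19.7, then at 52.8, 58.6 and 82.5, and then at 50.05, 74.1 and 90.2. As for most chaperones, wild-type replicate 2 was the highest and wild-type replicate 1 the lowest of the wild type, and ntrc-2cpab replicate 3 was the highest of all. Of 9 genes in the list of salicylic acid and secreted defence genes, 0 were called by limma in either mutant. At an unadjusted p under 0.05, 1 and 2 were higher in 2cpab and ntrc-2cpab, against 9.02% and 13.1% of all genes. All 9 were lowest in wild-type replicate 1 and highest in wild-type replicate 2 among the wild-type samples. In 2cpab 5 of 9 were highest in replicate 1, where 7 of 9 chaperones were lowest. Highest in 2cpab replicate 3 were 4 of 9, against 9 of 9 chaperones. In ntrc-2cpab 4 of 9 were lowest in replicate 1 and 7 of 9 highest in replicate 3, against 9 of 9 chaperones each. Pearson's r with BIP2 over the 9 samples was 0.84 for PR2 and PR5 and 0.78 for PR1. In the rest of the list it was 0.76 for PAD4, 0.66 for ICS1 and 0.34 for NPR1. The lowest values were 0.15 for NIMIN1, 0.08 for EDS1 and 0.07 for WRKY70. The part of this variation in the chaperone differences was not tested.

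**Figure D3:**
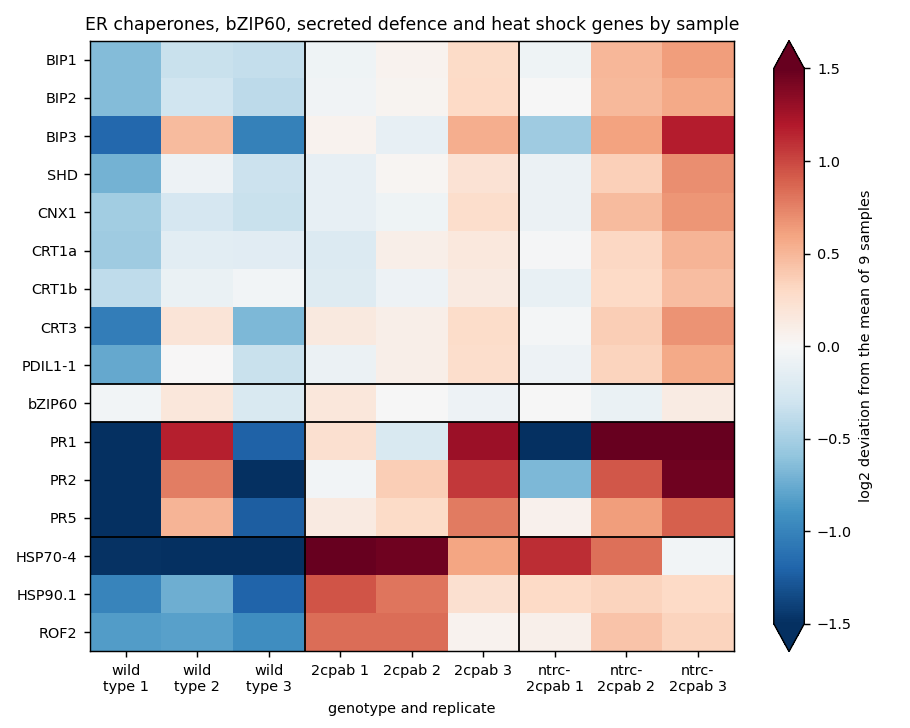
Deviation of each sample from the mean of the 9 samples on the log2(value + 1) scale (colour, truncated at 1.5 either way) for the 10 members, 3 secreted defence genes and 3 cytosolic heat shock genes. The chaperone rows run from blue in wild-type replicate 1, with a median of −0.65, to red in ntrc-2cpab replicate 3, with a median of 0.63, while the bZIP60 row stays pale and the heat shock rows are blue in all wild-type samples.

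The other steps of the ER folding pathway had smaller median differences than the chaperones. Among BiP's co-chaperones, which start or time its cycle, 5 of 6 genes were tested (ERdj3A lay under the filter). None was called in either mutant by limma, with 0 and 4 at an unadjusted p under 0.05 in 2cpab and ntrc-2cpab. Over all genes 9.02% and 13.1% were higher at that p, and these shares stand beside each ER list that follows. Their median difference was 0.20 in 2cpab and 0.41 in ntrc-2cpab, and ERdj3B, the highest of them by its mean over the 9 samples, differed by 0.29 and 0.64. Among 11 other genes of oxidative folding 0 were called by limma, with 3 and 7 at an unadjusted p under 0.05. Their medians were 0.27 and 0.32, and the highest by that mean, the disulfide isomerase PDIL2-1, differed by 0.37 and 0.45.

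Of 10 genes of glycoprotein folding and glycosylation, 2 rose in ntrc-2cpab, where 2.61% of all genes rose, and none was called in 2cpab. At an unadjusted limma p under 0.05, 7 were higher in ntrc-2cpab and 4 in 2cpab. CNX2, the second calnexin, stood at 10.8, 13.2 and 12.5 in the wild type, at 13.8, 16.0 and 17.3 in 2cpab and at 15.7, 19.7 and 22.7 in ntrc-2cpab. It rose in ntrc-2cpab by 0.62 (limma adjusted p = 0.0416). STT3A, a catalytic subunit of the oligosaccharyltransferase that attaches sugar chains, stood at 16.9, 19.3 and 19.8 in the wild type, at 20.6, 22.1 and 23.3 in 2cpab and at 23.6, 25.6 and 25.5 in ntrc-2cpab. It rose in ntrc-2cpab by 0.40 (limma adjusted p = 0.0366). For both genes all mutant samples lay above all wild-type samples, as for 11.0% and 14.3% of all genes in 2cpab and ntrc-2cpab. Each was called in 2 of 9 fits that left out 1 sample, with limma adjusted p of 0.0447 to 0.132 for CNX2 and 0.046 to 0.106 for STT3A. The list median was 0.22 in 2cpab and 0.25 in ntrc-2cpab, and its gene with the highest mean over the 9 samples, the oligosaccharyltransferase subunit gene DGL1, differed by 0.23 and 0.25.

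Protein translocation into the ER, the entry channel, had 7 genes, 0 called by limma in either mutant, with 3 and 5 at an unadjusted p under 0.05. The medians were 0.22 and 0.34. SEC61B1, the highest by that mean, differed by 0.32 and 0.48. ER-associated degradation, which returns misfolded protein to the cytosol, had 8 genes, 0 called by limma, with 1 and 5 at an unadjusted p under 0.05. Its medians were 0.06 and 0.27, and CDC48A, the extracting ATPase, differed by 0.29 and 0.28. The stress sensors and regulators had the smallest medians, −0.04 and 0.03 over 9 of 11 genes tested, as bZIP49 and NAC103 lay under the filter. None of them was called by limma, with 0 and 1 at an unadjusted p under 0.05. BAG7, an ER co-chaperone and the highest of that list by its mean, differed by 0.15 and 0.22. The sensors IRE1A, IRE1B and bZIP28 differed by 0.27, −0.13 and 0.03 in ntrc-2cpab, with limma adjusted p of 0.338, 0.466 and 0.883.

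**Figure D4:**
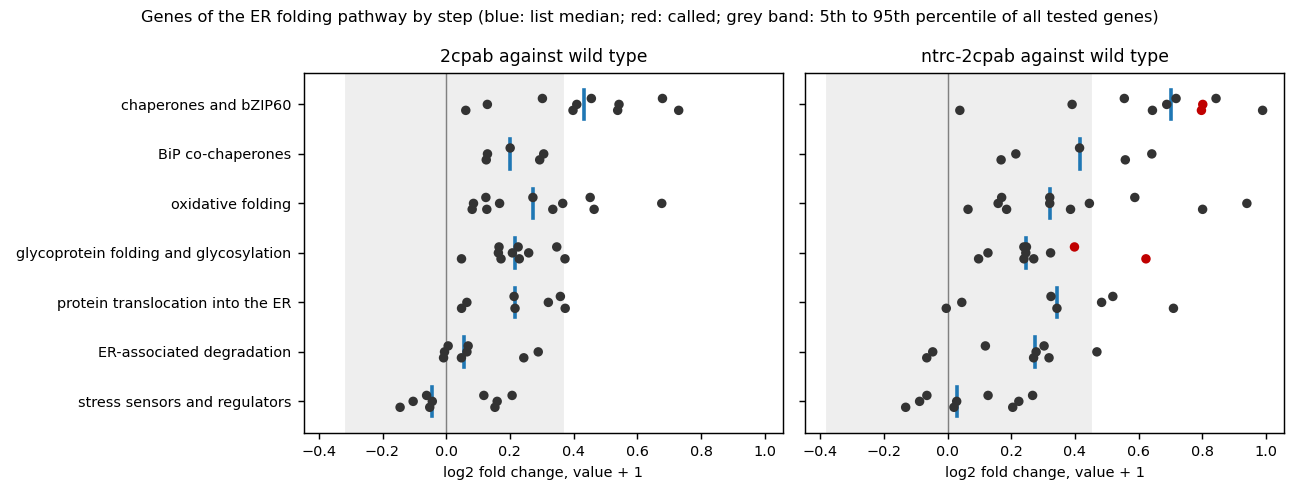
Differences of single genes on the log2(value + 1) scale (x axis) in 2cpab and ntrc-2cpab against the wild type, by step of the ER folding pathway, with list medians as blue lines, called genes in red and the 5th to 95th percentile of all tested genes as a grey band. In ntrc-2cpab the medians run from 0.70 for the chaperones and bZIP60 to 0.03 for the stress sensors and regulators.

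Cytosolic heat shock genes, which serve folding outside the ER, followed a different order among the samples. Of 6 genes 3 rose in 2cpab and 4 in ntrc-2cpab. Over all 16384 genes 11 and 427 rose, and 0.134% and 3.94% were called in either direction. HSP70-4, a cytosolic Hsp70, stood at 8.90, 5.81 and 5.66 in the wild type, at 84.6, 74.9 and 40.9 in 2cpab and at 58.6, 48.1 and 26.0 in ntrc-2cpab. It rose by 3.08 in 2cpab (limma adjusted p = 0.0139) and by 2.49 in ntrc-2cpab (limma adjusted p = 0.0129). HSP90.1, a cytosolic Hsp90, rose by 1.64 and 1.28, and the co-chaperone gene ROF2 rose by 1.44 and 1.14. The small heat shock gene HSP17.6II rose by 1.81 in ntrc-2cpab and differed by 1.99 in 2cpab (limma adjusted p = 0.0631). All 6 genes had a lower mean in ntrc-2cpab than in 2cpab, with a median of −0.33 and 0 called by limma (0 at an unadjusted p under 0.05). All 9 chaperones had a higher mean, as did 52.6% of all genes, also with 0 called and 0 at that p. In 2cpab replicate 3 all 6 heat shock genes were at their lowest within 2cpab, the sample in which all 9 chaperones were at their highest.

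Likeness of pattern was described by Pearson's r of log2 values over the 9 samples among 9284 genes whose mean abundance was 5 or more. BIP1 was the gene most like BIP2, with r of 0.996, which takes no account of reads split between these similar genes. CNX1 ranked 5, SHD 18, CRT1a 20, PDIL1-1 26, CRT1b 108 and CRT3 140. BIP3 lay under the abundance minimum of this ranking. The 5 genes outside the set that were most like BIP2 were SEC61G1 (AT5G50460), a small subunit of the entry channel, with r of 0.987, CNX2 with 0.983, AT4G29520 with 0.982, AT5G55290 with 0.981 and UTR3 (AT1G14360), a sugar nucleotide transporter, with 0.974. The first of these, SEC61G1, stood at 29.5, 35.3 and 37.1 in the wild type, at 40.1, 42.9 and 48.3 in 2cpab and at 40.6, 51.8 and 55.5 in ntrc-2cpab. bZIP60 ranked 4453 in likeness to BIP2, with r of 0.12. The genes most like bZIP60 were RPP5 (AT4G16950) with r of 0.938, UCP5 (AT2G22500) with 0.927, PS1 (AT1G08700) with 0.892, ACA1 (AT1G27770) with 0.891 and AT4G34150 with 0.878. CRT3 was the chaperone most like bZIP60, at rank 647 with r of 0.48. High r is easily reached over 9 samples when so many genes are ranked.

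Marker lists of leaf cell types were measured beside the members, and none of their tested genes was called by limma. The 5 leaf mesophyll markers summed to 20784 to 26640 in wild-type samples, 18399 to 20594 for 2cpab and 19357 to 20681 for ntrc-2cpab. Their median differences were −0.29 and −0.19, and 5 and 3 of them were lower at an unadjusted p under 0.05 in 2cpab and ntrc-2cpab, against 8.3% and 11.3% of all genes. The 5 guard cell markers summed to 25.1 to 29.7 in wild-type samples, 18.4 to 22.7 for 2cpab and 21.7 to 24.2 for ntrc-2cpab, with medians of −0.34 and −0.21 and 3 and 1 lower at an unadjusted p under 0.05. The 3 phloem markers summed to 66.9 to 70.8 in wild-type samples, 48.1 to 59.3 for 2cpab and 54.4 to 60.4 for ntrc-2cpab, with 1 lower at an unadjusted p under 0.05 in each mutant. Of 3 trichome markers GL1 lay under the filter, and the sums were 6.95 to 12.9, 5.75 to 10.1 and 5.65 to 10.7, with 0 at an unadjusted p under 0.05. Sums of the mesophyll, guard cell and phloem markers were thus lower in every mutant sample than in any wild-type sample. RBCS1A made up the largest part of the mesophyll sums and SUC2 of the phloem sums. Gene by gene, 3 of 5 mesophyll and 3 of 5 guard cell markers lay wholly below the wild type in each mutant. Of 3 phloem markers 2 did so in 2cpab and 1 in ntrc-2cpab. Over all 16384 genes, 1903 and 2280 did so. The part of these markers in the chaperone differences was not tested.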

How the data were processed

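Poly(A) RNA of 9 leaf samples was analysed from the authors' deposited table of log2 values for 33602 loci. FastQC, HISAT2, StringTie and the build TAIR10 are named per the submitters' processing notes, with versions, settings, strandedness and the assignment of reads from similar genes not given in the sources used here. Once the offset of 1 was removed, the 75th percentile was the same in all samples, so values are relative within a sample and a change of total RNA cannot be seen. Depth is unknown and precision rests on the spread between replicates, which the labels call biological.

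limma 3.58.1 in R 4.3.3 was fitted to the deposited log2 values of all 9 samples (genotype means, eBayes with trend, 6 residual degrees of freedom, two-sided, Benjamini-Hochberg over 16384 genes whose mean abundance was 1 or more), after a check on simulated data. Genes are named as the members, the called and most abundant genes of each list (up to 4 called), and the 5 most like BIP2 and bZIP60. IRE1A, IRE1B, bZIP28, PR1, PR2, PAD4, ICS1, NPR1, NIMIN1, EDS1 and WRKY70 were added after their values were seen. The members and lists were chosen with earlier results of these data known. Names and sequences came from RefSeq's TAIR10.1, which matched 32835 loci. The 10 members overlapped no other annotated gene. Alternatives were the filter, the offset, the scaling, quantile normalization, 2 groups alone, array weights, the replicate block and each sample left out. The wide promoter window was added after seeing the data.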

Additional observations from a re-analysis of the deposited data

How the results depend on the processing

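Over the 10 members and 3 comparisons, 475 of 507 refitted values kept their direction and their side of the threshold, 18 lost a call, 6 gained one and 8 changed sign. The number of members called in ntrc-2cpab against the wild type was 2 and fell to 0 with no filter on low values and with only the 2 groups compared, and ran from 0 to 3 with 1 sample left out. It was 3 with the authors' scaling undone, where CNX1 was added (limma adjusted p = 0.0422). It was 0 without wild-type replicate 1 or 3, 2cpab replicate 2 or 3, or ntrc-2cpab replicate 2 or 3, and 1 without 2cpab replicate 1. With no filter the limma adjusted p was 0.0879 for BIP1 and 0.0763 for BIP2, and with only 2 groups 0.0905 and 0.0766. No member was called in the other comparisons under any alternative. The genes called in 2cpab against the wild type numbered 22, and 7 with no filter, 350 with the authors' scaling undone, 6 with only 2 groups, 164 with array weights and 4 to 116 with 1 sample left out. In ntrc-2cpab against the wild type they numbered 645, and 232 with no filter, 968 with the scaling undone (826 higher and 142 lower, against 427 and 218), 50 with only 2 groups and 49 to 761 with 1 sample left out. Undoing the scaling moved the median of all genes to 0.10 in 2cpab. Between the mutants 1 gene was called, 5 with no filter, 2 with only 2 groups and 1 to 2 with 1 sample left out. The cause of these shifts was not tested. Values that changed sign did so with 1 sample left out: bZIP60 ran from −0.035 to 0.16 in 2cpab (−0.035 and −0.011 where it reversed), from −0.058 to 0.14 in ntrc-2cpab (−0.058 and −0.018) and from −0.080 to 0.049 between the mutants (0.049 and 0.030), and between the mutants BIP3 ran from −0.12 to 0.73 and CRT3 from −0.0033 to 0.35. The genotypes share only replicate numbers: same-numbered samples had correlations of −0.156 to 0.21, 3 of 9 over 0.1, and 1 of 9 samples correlated best with its own number. With the replicate block, 5 members were called in ntrc-2cpab (SHD, CNX1 and CRT1a added), and 9 and 357 genes in 2cpab and ntrc-2cpab. Unknown depth leaves low genes such as BIP3 without a counting error.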
